A study of Mus musculus with 15 samples.

Results

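The genes described here encode 7 enzymes and carriers that supply NADPH or run the pentose phosphate pathway, namely G6pdx, Pgd, Taldo1, Tkt, Me1, Idh1 and Slc25a1. They are 7 of the 14272 named genes in the expression table, and were taken from it by symbol. All 7 passed the filter on low values, as did 14059 named genes in all. The set was put together with earlier results of these data in view, including how several members differ between the groups, and several were chosen by their higher CPM in weekly than in vehicle libraries. The differences of the 7 genes are therefore given as descriptions with no p-value.

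RNA from the quadriceps of male DBA/2J-mdx mice was sequenced. The mdx allele removes dystrophin, and all groups, the controls included, carry it, so no group shows healthy muscle. Vehicle mice were injected intraperitoneally with DMSO on 7 days a week. Weekly mice had prednisone, a synthetic glucocorticoid, at 1 mg/kg on 1 day a week with DMSO on the other 6, and daily mice had 1 mg/kg on all 7. Each group has 5 libraries, and the labels put the mice at 6 months in the protocol and at about 7 months in the sample descriptions. The labels do not say that the libraries of a group are from separate animals, so any p-value measures only the spread between these libraries, which may be technical.

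The pentose phosphate pathway branches from glycolysis at glucose 6-phosphate. Its oxidative branch makes NADPH and a pentose phosphate, and its non-oxidative branch moves carbon between sugar phosphates and back to glycolysis. Cytosolic malic enzyme and cytosolic isocitrate dehydrogenase make NADPH by other routes, and the mitochondrial citrate carrier sends out the citrate from which cytosolic acetyl-CoA is made. NADPH is spent on fatty acid and cholesterol synthesis and on keeping glutathione and thioredoxin reduced. Fat and liver are known for a strong oxidative branch, and resting muscle for a weak one.

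Positions are from GENCODE M21 on GRCm38. G6pdx lies at chrX:74409483-74429194, Pgd at chr4:149149991-149166771, Me1 at chr9:86581371-86695953, Idh1 at chr1:65158616-65186500 and Slc25a1 at chr16:17925223-17928219, all on the minus strand. Taldo1 lies at chr7:141392199-141402968 and Tkt at chr14:30548359-30574720, both on the plus strand. Ikbkg, on the opposite strand, shares 418 of the 3080 exonic bases of G6pdx. No source used here says whether reads were counted by strand, so reads of G6pdx and Ikbkg cannot be told apart there. Ikbkg averaged 32.8, 39.8 and 33.5 CPM (counts scaled to a fixed library total) in vehicle, weekly and daily libraries. An antisense gene shares 30 bases with Me1 exons, and a microRNA gene shares 1 base with Tkt exons.

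Promoter stretches are shown for 4 members, from 250 bases before the RefSeq start to 20 bases after it, on GRCm38.p6 and 5′ to 3′ on the gene's own strand. Tkt (chr14:30548881-30549150) and Slc25a1 (chr16:17928200-17928469) are shown because their levels differed most between the groups. G6pdx (chrX:74428861-74429130) and Me1 (chr9:86695895-86696164) are shown because they hold the core of the antioxidant response element. Capitals mark every match, on either strand, to the 6 motifs searched.
Tkt: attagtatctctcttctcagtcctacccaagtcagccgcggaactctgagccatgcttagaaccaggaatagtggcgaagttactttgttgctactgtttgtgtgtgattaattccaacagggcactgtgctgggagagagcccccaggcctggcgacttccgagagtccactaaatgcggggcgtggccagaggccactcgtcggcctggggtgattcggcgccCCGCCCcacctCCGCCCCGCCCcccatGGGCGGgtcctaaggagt
Slc25a1: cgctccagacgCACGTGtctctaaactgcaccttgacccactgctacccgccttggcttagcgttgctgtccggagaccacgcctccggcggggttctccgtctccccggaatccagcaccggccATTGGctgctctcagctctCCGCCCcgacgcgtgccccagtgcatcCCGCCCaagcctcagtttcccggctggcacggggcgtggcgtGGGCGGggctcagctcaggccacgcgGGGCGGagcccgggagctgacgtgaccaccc
G6pdx: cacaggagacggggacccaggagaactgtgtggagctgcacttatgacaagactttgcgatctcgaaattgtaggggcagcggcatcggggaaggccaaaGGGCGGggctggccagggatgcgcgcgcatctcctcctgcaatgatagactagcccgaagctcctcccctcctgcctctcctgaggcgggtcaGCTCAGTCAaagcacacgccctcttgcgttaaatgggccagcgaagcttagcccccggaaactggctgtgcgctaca
Me1: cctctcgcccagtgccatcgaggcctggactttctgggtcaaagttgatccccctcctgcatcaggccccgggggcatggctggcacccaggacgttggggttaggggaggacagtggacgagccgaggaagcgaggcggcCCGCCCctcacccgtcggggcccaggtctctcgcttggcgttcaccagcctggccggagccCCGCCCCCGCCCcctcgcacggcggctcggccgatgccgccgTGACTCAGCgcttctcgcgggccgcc
The antioxidant response element core TGACNNNGC, bound by NRF2, was found in 2 of the 7 promoters, at bases -57 to -49 of G6pdx and -6 to 3 of Me1, and in 11.1% of 32851 RefSeq promoters of the same length. The E-box CACGTG, bound by ChREBP, USF and clock factors, was found in 1 member, Slc25a1, at bases -239 to -234, and in 6.57% of all promoters. The sterol response element TCACNCCAC and the glucocorticoid receptor spacing ACANNNTGT were found in 0 of 7, against 1.14% and 6.25% of all promoters. The CCAAT box was found in 4 of 7 (Pgd, Taldo1, Idh1 and Slc25a1) against 35.4%, and the GC box GGGCGG in 7 of 7 against 34.1%. These matches describe the letters only, and binding was not measured.

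Recovered to whole reads, the CPM values came from 2780768 to 11052552 reads per library. A level of 3 reads, under which single values say little, was 0.271 to 1.08 CPM, and every member value lay above it. A pair of libraries stood apart from the rest. Weekly 4, the shallowest, had 0.567% of its CPM in the mitochondrial ribosomal RNA mt-Rnr2, against 6.22% to 9.41% in the other weekly libraries. Every weekly library lay below the vehicle libraries, which held 12.6% to 13.4%, and daily libraries held 8.05% to 14.4%. Daily 3 had 20.5% in the ribosomal repeat transcript Gm26924, and 7.79% in Lars2, against at most 3.02% and 1.61% in the other daily libraries. A share this large lowers the CPM left for the remaining genes. Pairs of vehicle libraries lay close together (chi-square per degree of freedom 1.51 to 2.05), and pairs of weekly (20.03 to 95.2) and daily libraries (4.93 to 231.1) much further apart. Changes are differences in mean log2(CPM + 0.5). In the main test their SE and p-value came from 1 fit that shared 1 spread per gene over the 3 groups. The groups differed in spread, so the SE and p-value of a comparison also depend on the group left out of it. The median change over all 14059 genes was 0.17 for weekly against vehicle, -0.08 for daily against vehicle and -0.24 for daily against weekly, and with TMM scaling, edgeR's trimmed mean of ratios, it was 0.01, 0.00 and 0.01. Members are therefore also given relative to that median. In bulk tissue, more cells of a type and more RNA per cell cannot be told apart.

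Across the groups, all 7 transcripts were higher in weekly than in vehicle libraries by their means, and the sizes ran from 1.46 times for Idh1 to 10.6 times for Tkt. The median change of the 7 was 1.15 on the log2 scale, or 0.98 above the median of all genes. In daily libraries 6 of the 7 transcripts lay near or below vehicle by their change and Pgd lay above it, with a median change of -0.28 (-0.20 relative to all genes). Between the regimens, daily against weekly, the median was -1.44 (-1.20 relative to all genes).

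**Figure D1:**
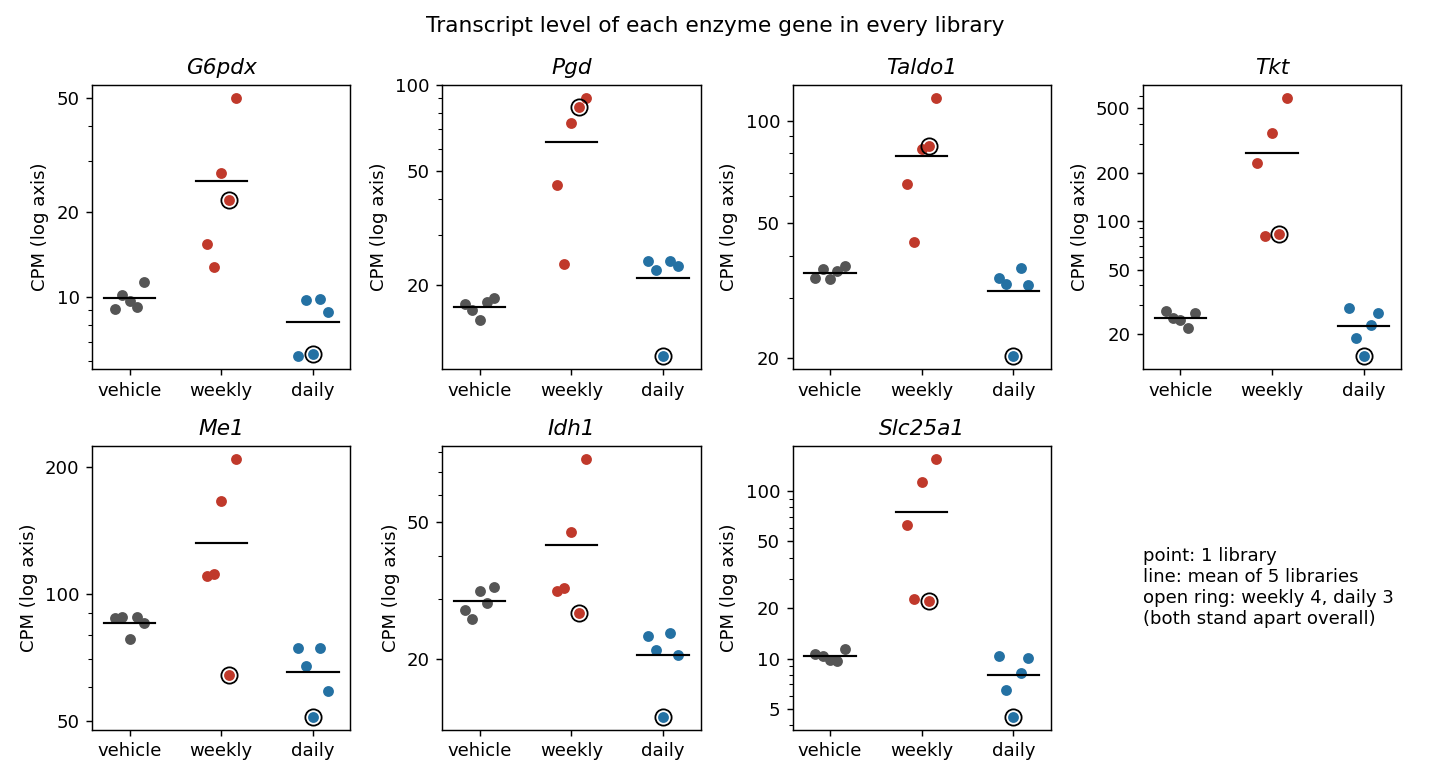
Level of each of the 7 genes in every library, as CPM on a log axis, by group, with 5 libraries per group, a line at the group mean and open rings around weekly 4 and daily 3. The weekly libraries are spread widely and the vehicle libraries closely, and Tkt runs from 80.3 to 582 CPM in weekly libraries against 21.7 to 27.6 in vehicle.

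The oxidative branch starts with G6pdx, glucose-6-phosphate dehydrogenase, its entry and rate-limiting step. G6pdx measured 9.13, 10.2, 9.73, 9.29 and 11.3 CPM in vehicle libraries 1 to 5. Weekly libraries 1 to 5 held 15.4, 12.8, 27.4, 21.9 and 50.05 CPM, and daily libraries 1 to 5 held 6.23, 9.78, 6.35, 9.84 and 8.87. Every weekly library exceeded every vehicle library, while the daily and vehicle ranges overlapped. The means were 9.93 ± 0.872 (SD, n = 5) in vehicle, 25.5 ± 14.9 in weekly and 8.21 ± 1.80 in daily. On the log2 scale weekly exceeded vehicle by 1.15 (SE 0.26).

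Pgd, 6-phosphogluconate dehydrogenase, makes the second NADPH of the branch. Pgd measured 17.2, 16.4, 15.1, 17.5 and 18.0 CPM in vehicle, 44.7, 23.7, 73.5, 83.8 and 90.3 in weekly, and 24.2, 22.6, 11.3, 24.3 and 23.4 in daily libraries 1 to 5. All 5 weekly libraries lay above all vehicle libraries, and so did 4 of the 5 daily libraries, daily 3 being the exception. It was the only member with a positive daily change against vehicle, 0.27 on the log2 scale (0.35 relative to all genes), and the sign was the same with TMM scaling. Group means were 16.8 ± 1.12 CPM for vehicle, 63.2 ± 28.1 for weekly and 21.2 ± 5.55 for daily, and the weekly change was 1.73 (SE 0.28). Weekly 2, at 23.7 CPM, lay inside the daily range.

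The non-oxidative branch is reversible. Taldo1, transaldolase, moves a dihydroxyacetone unit between sugar phosphates. Its levels were 34.4, 36.5, 34.1, 36.1 and 37.3 CPM in vehicle, 65.0, 44.0, 82.3, 84.1 and 117 in weekly, and 34.5, 33.1, 20.3, 36.8 and 32.8 in daily libraries. The weekly libraries were all above the other 10 libraries, and the daily libraries overlapped vehicle. Mean Taldo1 was 35.7 ± 1.36, 78.4 ± 26.8 and 31.5 ± 6.47 CPM in vehicle, weekly and daily, and the weekly change of 1.05 (SE 0.20) was the smallest of the 4 pentose phosphate members.

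Tkt, transketolase, is the thiamine-dependent enzyme that transfers a ketol unit and links the pathway to glycolysis. It showed the widest difference of the 7 genes. Tkt measured 27.6, 25.2, 24.5, 21.7 and 26.8 CPM in vehicle libraries and 229.6, 80.3, 354, 82.7 and 582 in weekly libraries. In daily libraries it measured 29.1, 18.7, 14.6, 22.6 and 26.7 CPM. The lowest weekly library was above the highest of all others, and weekly 1, 3 and 5 stood well over weekly 2 and 4. Its weekly mean, 266 ± 210 CPM, was 10.6 times the vehicle mean of 25.2 ± 2.31, and the daily mean was 22.3 ± 5.88. The log2 change was 2.97 (SE 0.38), or 2.79 relative to all genes, and daily against weekly it was -3.17.

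Me1, the cytosolic malic enzyme, makes NADPH while turning malate into pyruvate. It measured 87.6, 88.0, 78.1, 88.3 and 85.3 CPM in vehicle libraries. In weekly libraries it measured 109.99, 112, 167, 64.4 and 209, and in daily libraries 74.4, 67.4, 51.1, 74.3 and 58.7. Weekly 1, 2, 3 and 5 were above all vehicle libraries and weekly 4 was below all of them, whereas all 5 daily libraries were below all vehicle libraries. Me1 averaged 85.5 ± 4.29 CPM in vehicle, 132 ± 56.3 in weekly and 65.2 ± 10.1 in daily. The weekly change was 0.52 (SE 0.21) and the daily change -0.40.

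Idh1, the cytosolic and peroxisomal isocitrate dehydrogenase, makes NADPH from isocitrate. Vehicle libraries had 27.8, 26.2, 31.6, 29.2 and 32.4 CPM, weekly libraries 31.5, 32.1, 46.9, 27.3 and 76.5, and daily libraries 23.4, 21.3, 13.6, 23.9 and 20.6. Only weekly 3 and 5 exceeded the vehicle range, and the other 3 weekly libraries lay within it. All 5 daily libraries lay under the lowest vehicle library. The weekly mean of 42.9 ± 20.2 CPM, 1.46 times the vehicle mean of 29.4 ± 2.59, was the smallest ratio of the 7, and the daily mean was 20.6 ± 4.11. The log2 changes were 0.43 (SE 0.22) for weekly and -0.53 for daily. For Me1 and Idh1 the daily libraries were also all below vehicle with TMM scaling, where daily 3 was at 78.7 CPM for Me1 against a lowest vehicle value of 80.6.

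Slc25a1 is the mitochondrial citrate carrier, which trades citrate for malate across the inner membrane. It measured 10.6, 10.4, 9.85, 9.73 and 11.4 CPM in vehicle libraries and 63.0, 22.6, 113, 21.9 and 156 in weekly libraries. The daily values were 10.4, 6.52, 4.49, 8.16 and 10.1 CPM. As for Tkt, each weekly library was above all vehicle libraries, with weekly 1, 3 and 5 well above weekly 2 and 4. Slc25a1 averaged 10.4 ± 0.675 CPM in vehicle, 75.4 ± 58.6 in weekly and 7.94 ± 2.48 in daily. The weekly mean was 7.25 times vehicle, with a log2 change of 2.38 (SE 0.39), and daily against weekly the change was -2.81.

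**Figure D2:**
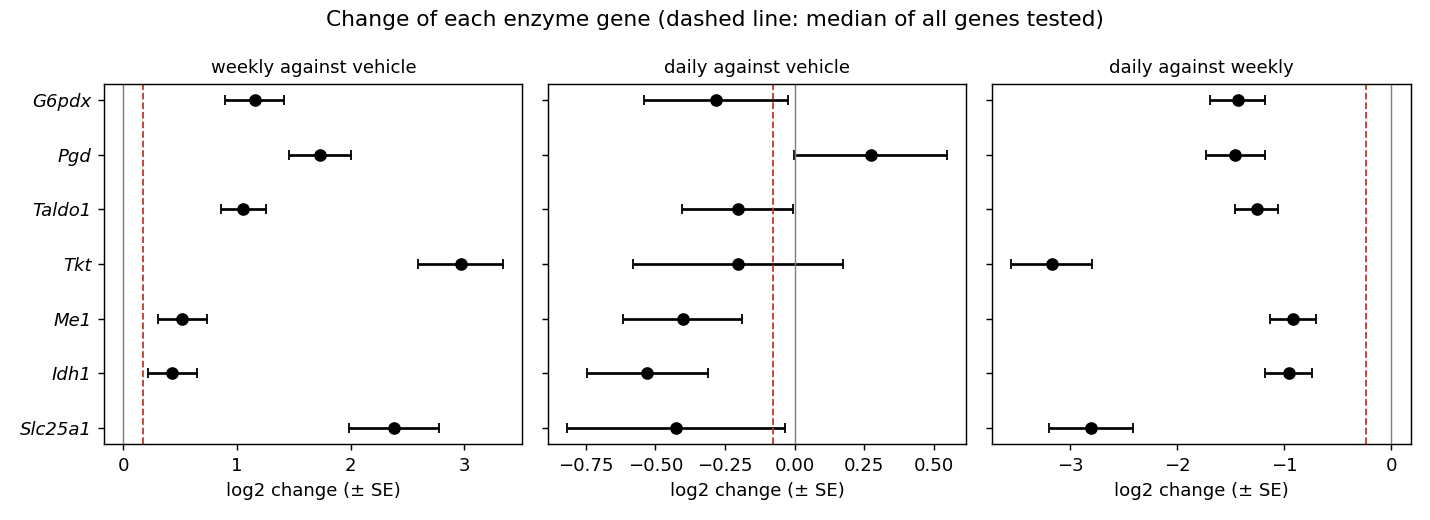
Log2 change of each gene with its standard error, from 1 fit over 15 libraries, for weekly against vehicle, daily against vehicle and daily against weekly, with a dashed line at the median of all genes. Tkt (2.97) and Slc25a1 (2.38) lie farthest to the right for weekly against vehicle, and the daily changes against vehicle run from -0.53 for Idh1 to 0.27 for Pgd.

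The counts below use limma with an adjusted p under 0.05 over all 14059 genes, and nothing is read from them, because the set was chosen with these comparisons known. In weekly against vehicle 8.06% of all genes passed, 6.99% as higher and 1.07% as lower, and of the members 5 of 7 passed, all higher: Tkt, G6pdx, Pgd, Taldo1 and Slc25a1. Me1 and Idh1 passed as well when weekly 4 was left out, alone or together with daily 3, with changes of 0.75 and 0.57 without both libraries. In daily against vehicle 3.89% of all genes passed, 1.76% as higher and 2.13% as lower, and 0 of 7 members passed by limma, edgeR or DESeq2, while 1 had an unadjusted p under 0.05 in limma. In daily against weekly 8.73% passed, 0.484% as higher and 8.24% as lower, and 7 of 7 members did, all lower. With only the 2 groups compared 5 of 7 passed there, without Me1 and Idh1, and with TMM scaling Me1 did not pass, with a change of -0.65. The weekly libraries lay above vehicle without overlap in 5 of 7 members, against 11.8% of all genes, and below it in 0 of 7, against 1.66%. Daily libraries lay above vehicle without overlap in 0 of 7, against 2.45%, and below it in 2 of 7, against 8.82%. They lay above weekly in 0 of 7, against 0.235%, and below weekly without overlap in 5 of 7, against 6.98%. The comparisons share libraries and are given side by side only.

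The weekly libraries were not alike. Weekly 5 was the highest library of its group for all 7 genes, and weekly 3 was second for 5 of them. The ratio of the highest to the lowest weekly library was 7.24 for Tkt, 7.13 for Slc25a1, 3.92 for G6pdx, 3.81 for Pgd, 3.25 for Me1, 2.8 for Idh1 and 2.65 for Taldo1. Weekly 4 did not take the same place for every gene. It was second for Pgd and Taldo1 and lowest for Me1, Idh1 and Slc25a1, while weekly 2 was lowest for the other 4. Among daily libraries, daily 3 was lowest for 6 of 7 genes.

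**Figure D3:**
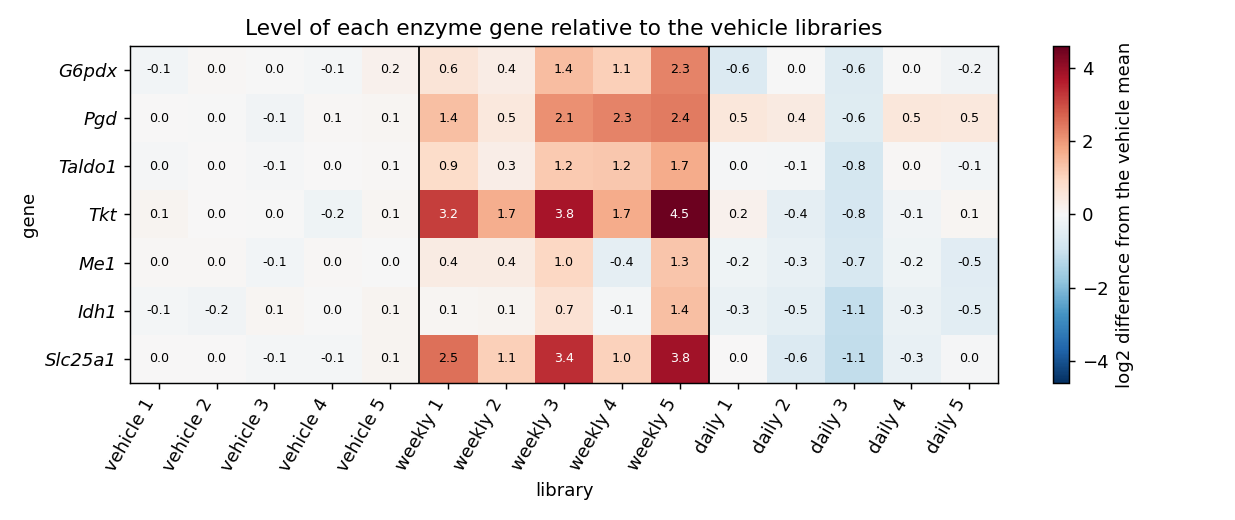
Log2 level of each gene in each library relative to its vehicle mean, as colour and number, with genes as rows and the 15 libraries on the horizontal axis. Weekly 5 is highest for all 7 genes, and in weekly 4 Pgd and Taldo1 lie above vehicle while Me1 lies below it.

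Over the 15 libraries, Spearman's rho between pairs of members ran from 0.332 for Pgd and Me1 to 0.961 for Tkt and Slc25a1, over 21 pairs. These values describe libraries that share groups and scaling. Among 10028 genes with a mean of at least 5 CPM, those with levels most like the mean of the members' standardised log2 values were Aldh2 (rho 0.975), Gprc5b (0.968), Mrpl49 (0.964), Nat8l (0.964), 1700037H04Rik (0.957) and Cdo1 (0.954).

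Per length, as CPM per kilobase of merged exons, Me1 was the most abundant member in vehicle muscle at 22.2, followed by Taldo1 at 16.4 and Idh1 at 10.6. Slc25a1 (4.81), Tkt (3.42), G6pdx (3.22) and Pgd (2.61) followed at lower and similar levels. The levels and orders given here rest on merged exon length, 7355 bases for Tkt and 6447 for Pgd against 2164 for Slc25a1 and 3080 for G6pdx. In plain CPM, vehicle Tkt (25.2) and Pgd (16.8) lay above Slc25a1 (10.4) and G6pdx (9.93). In weekly libraries the order changed, with Tkt at 36.1, Taldo1 at 36.1, Slc25a1 at 34.8 and Me1 at 34.4 CPM per kilobase, which do not differ beyond the spread between libraries. Idh1 (15.5), Pgd (9.80) and G6pdx (8.28) were lower. Daily libraries kept the vehicle order at the top, with Me1 at 16.9, Taldo1 at 14.5 and Idh1 at 7.42.

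Each of the malic enzyme and isocitrate dehydrogenase members has relatives. Me1 made up 84.8% ± 1.07 (SD, n = 5) of the per-length level of the malic enzymes in vehicle, 88.8% ± 3.79 in weekly and 83.8% ± 1.80 in daily libraries. This share rests on merged exon lengths of 3848 bases for Me1, 7252 for Me2 and 14624 for Me3. The greater lengths lower the per-length level of Me2 and Me3, so Me1 makes up less of their plain CPM. The mitochondrial Me2 and Me3 did not pass the test in any comparison, with weekly changes of -0.15 and -0.03. Idh1 was the minor form beside the mitochondrial Idh2, with 23.0% ± 1.68 of the pair in vehicle, 21.8% ± 9.43 in weekly and 19.7% ± 1.94 in daily libraries. Within weekly libraries that share ran from 11.2% to 31.3%, wider than in the other groups. Idh2 itself averaged 92.2 ± 3.45 CPM in vehicle and 155 ± 59.2 in weekly libraries, a change of 0.65 that did not pass in limma (adjusted p = 0.082). That change passed in 3 of 26 alternatives, each with weekly 2 or weekly 4 left out. In daily against weekly Idh2 passed as lower, a call that held in 21 of 26 alternatives and not with TMM scaling.

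Most other genes of the pentose phosphate pathway did not pass the test. Of 13 tested in weekly against vehicle, 2 rose and 1 fell by limma, and their median change of 0.17 was that of all genes. Rpe, the epimerase that makes xylulose 5-phosphate for transketolase, rose from 8.88 ± 0.617 to 14.8 ± 4.49 CPM (log2 change 0.66, SE 0.18, limma adjusted p = 0.029). H6pd, which makes NADPH inside the endoplasmic reticulum, rose from 61.5 ± 3.09 to 91.2 ± 22.6 CPM (0.53, SE 0.16, limma adjusted p = 0.045). Rpe held in 18 of 26 alternatives and H6pd in 14, and each lost its call on leaving out any 1 vehicle library, weekly 3 or weekly 5. Rpe also lost it with TMM scaling, and H6pd with the replicate block and without daily 1, 2, 4 or 5 (highest adjusted p over the alternatives 0.094 and 0.13). Calls over all genes also dropped on leaving out 1 vehicle library, from 1133 to between 645 and 684. Pgls, the lactonase between the 2 dehydrogenases, had a change of 0.57 that did not pass (adjusted p = 0.14), and neither did Rpia, the isomerase that makes ribose 5-phosphate (0.17, adjusted p = 0.60). The phosphoribosyl pyrophosphate synthetases Prps1 (0.00) and Prps2 (-0.17), which carry ribose 5-phosphate on to nucleotides, did not pass either.

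The gene that fell is listed as 9630033F20Rik, a RefSeq synonym of Tigar, whose product is a fructose bisphosphatase that sends glucose carbon into the pathway. It measured 44.8 ± 2.88 CPM in vehicle, 21.6 ± 9.36 in weekly and 21.7 ± 1.83 in daily libraries. The change was -1.17 (SE 0.23, limma adjusted p = 0.0032) in weekly and -1.03 (SE 0.23, limma adjusted p = 0.013) in daily libraries against vehicle, and 0.14 daily against weekly, which did not pass. The weekly call held under all 26 alternatives, and the sign is opposite to that of the 7 members in weekly libraries.

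**Figure D4:**
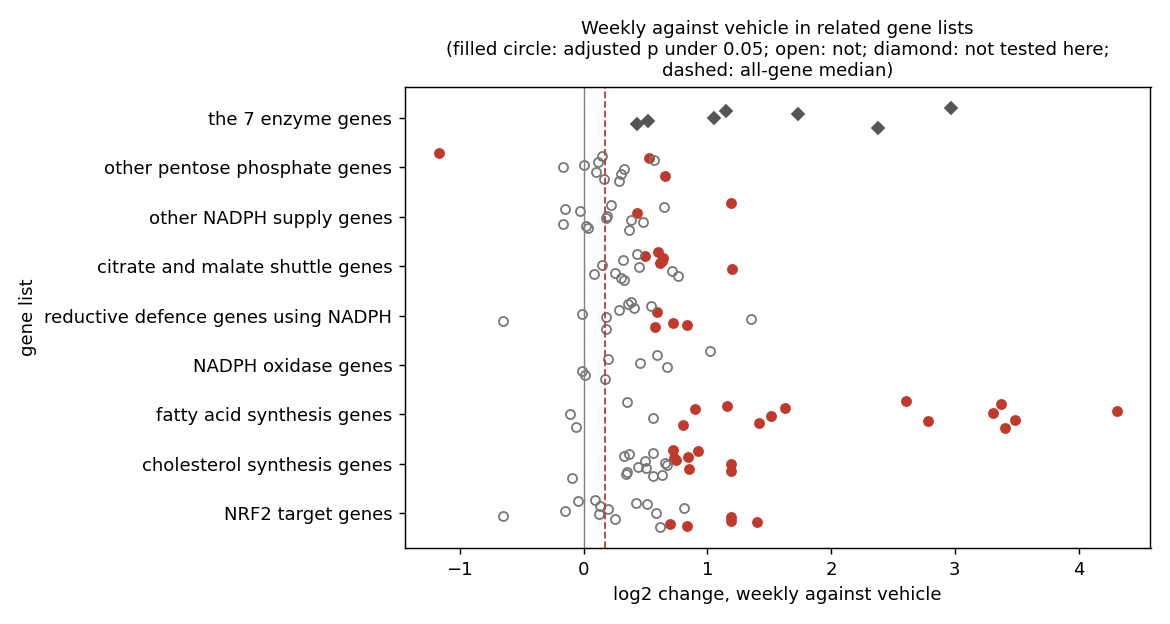
Log2 change in weekly against vehicle for every tested gene of 8 related lists and the 7 members, with a dashed line at the median of all genes. Filled circles passed limma at an adjusted p under 0.05, as did 13 of 17 fatty acid synthesis genes and 3 of 13 other pentose phosphate genes, and diamonds are the members, which carry no test.

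Of 14 other NADPH supply genes, 2 rose in weekly libraries and 0 fell. Aldh1l1, which makes NADPH by oxidising formyl tetrahydrofolate, rose from 12.97 ± 2.101 to 31.8 ± 12.3 CPM (1.19, SE 0.21, limma adjusted p = 0.00095). Mthfd1, of the same cytosolic folate cycle, rose by 0.43 (limma adjusted p = 0.044), a call that held in 9 of 26 alternatives and not with TMM scaling. NAD kinase, Nadk, which makes the NADP that the enzymes of G6pdx, Pgd, Me1 and Idh1 reduce, had a weekly change of 0.48 that did not pass. In daily against vehicle 2 of the 14 fell, the mitochondrial transhydrogenase Nnt (-0.54, limma adjusted p = 0.048) and the mitochondrial NAD kinase Nadk2 (-0.48, limma adjusted p = 0.034), calls that held in 13 and 14 of 26 alternatives and that were lost on leaving out any 1 vehicle library. Over all genes, leaving out vehicle 5 took the daily against vehicle calls from 547 to 347. In daily against weekly 5 of 14 fell, and 1 did with TMM scaling.

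Around the citrate carrier, 6 of 16 citrate and malate shuttle genes rose in weekly libraries (4 with TMM scaling) and 0 fell. Pcx, pyruvate carboxylase, which refills mitochondrial oxaloacetate, rose from 80.2 ± 2.83 to 200.3 ± 91.7 CPM (1.197, SE 0.23, limma adjusted p = 0.0021). Cytosolic malate dehydrogenase Mdh1 (0.63, limma adjusted p = 0.013) makes the malate that Me1 uses, and the cytosolic transaminase Got1 (0.64, limma adjusted p = 0.011) acts beside it. Citrate synthase Cs rose by 0.50 (limma adjusted p = 0.036). Cs was picked after its values were seen, so nothing is read from that p-value. In daily against vehicle 0 of 16 passed by limma, edgeR or DESeq2, and 2 had an unadjusted limma p under 0.05. In daily against weekly 9 of 16 fell (4 with TMM scaling), among them the dicarboxylate carrier Slc25a10 (-1.53, SE 0.26, limma adjusted p = 0.0010).

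Lists of NADPH users differed in their counts. Of 17 fatty acid synthesis genes, 13 rose in weekly libraries, and 13 did with TMM scaling. Acly, which splits the exported citrate, had a weekly change of 3.37 and Fasn, the synthase that uses NADPH, of 3.31. The summed list ranged from 1505 to 1610 CPM in vehicle libraries and measured 7799, 3593, 11313, 2868 and 18856 in weekly libraries 1 to 5. Of 21 cholesterol synthesis genes 8 rose under either scaling, among them Fdps (0.84, limma adjusted p = 0.0031) and the mevalonate pathway kinase Pmvk (1.19, limma adjusted p = 0.0036).

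Of 14 genes of reductive defence that use NADPH, 4 rose in weekly libraries (2 with TMM scaling). Txnrd1, cytosolic thioredoxin reductase, rose from 65.3 ± 6.08 to 118 ± 23.2 CPM (0.84, SE 0.15, limma adjusted p = 0.0016). Glutathione reductase, Gsr, measured 18.6 ± 1.28 and 21.2 ± 1.43 CPM and did not pass (0.18). Of 18 NRF2 target genes 5 rose and 0 fell (3 and 1 with TMM scaling, 6 and 1 with edgeR, 6 and 2 with DESeq2), among those that rose Srxn1, which repairs peroxiredoxins (1.40, limma adjusted p = 0.00015), and Osgin1 (1.19, limma adjusted p = 0.00072). Nqo1, a standard NRF2 target, went the other way at -0.65 (limma adjusted p = 0.057), and passed as lower with TMM scaling. It also passed without weekly 2 and without daily 3. Txnrd1 and Nqo1 are in both lists. Of the 8 NADPH oxidase genes 0 passed in weekly against vehicle by limma and edgeR, 2 had an unadjusted limma p under 0.05, and DESeq2 called 1, Rac1, as lower.

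Markers of other cells moved with the members in some libraries. Of 12 adipocyte markers 6 rose in weekly libraries and 6 fell in daily libraries against vehicle. The weekly count was 2 with TMM scaling, 9 with edgeR and 8 with DESeq2. It was 7 with the replicate block and 11 without weekly 4 and daily 3. Without Car3, which muscle fibres also make, the summed list was 542 to 575 CPM in vehicle libraries, 1056, 768, 1548, 580 and 3066 in weekly libraries 1 to 5 and 164 to 386 in daily libraries. Adipoq, made by fat cells, was 29.3 to 30.6 CPM in vehicle libraries and 48.99, 48.6, 105, 43.5 and 166 in weekly libraries 1 to 5. The order of weekly 5, 3 and 1 is the same in the adipocyte sum and in the summed members. The members summed to 559, 327, 864, 386 and 1281 CPM. This order is not particular to fat markers. The 8 endothelial markers summed to 304, 237, 346, 276 and 387 CPM in weekly libraries 1 to 5, and 229 to 242 in vehicle. Their sum ranks all 5 weekly libraries as the members do. By limma 0 of the 8 passed in weekly against vehicle. In daily against weekly 5 passed as lower (2 with TMM scaling). In weekly 4 the adipocyte sum of 580 CPM was close to the vehicle range, and Tkt there was 82.7 CPM against at most 27.6 in vehicle. In daily libraries the adipocyte sum was below vehicle in every library, while Pgd was above every vehicle library in 4 of 5. Of 5 brown fat markers 3 rose in weekly libraries, Ucp1, Cidea and Dio2, and 3 did with TMM scaling. The other 2, Cox8b and Ppargc1a, did not pass, and each passed in 0 of 26 alternatives. The brown fat list summed to 153 to 173 CPM in vehicle libraries, 336, 177, 251, 109.7 and 538 in weekly libraries 1 to 5 and 79.6 to 155 in daily libraries. So weekly 5 was highest here too and weekly 4 was below vehicle. Ucp1, the uncoupling protein of brown fat, was 0.11 to 0.73 CPM in vehicle, near the level of 3 reads, and 77.8, 9.77, 47.3, 1.44 and 223 CPM in weekly libraries 1 to 5. The part of white fat, brown fat or endothelial cells in the members' levels was not tested.

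The summed macrophage markers were 495 to 520 CPM in vehicle, 217, 472, 471, 1971 and 551 in weekly libraries 1 to 5 and 302 to 615 in daily libraries. Weekly 4 was the highest by far, and it was there that Pgd and Taldo1 ranked second while Me1, Idh1 and Slc25a1 ranked last. Of the 12 macrophage markers 0 passed in weekly against vehicle by limma, 1 reached 0.05 before adjustment, and edgeR called 1 and DESeq2 1. Without weekly 4 and daily 3, limma called 1 of the 12 as higher and 5 as lower, and Csf1r was called lower without weekly 4 alone. Myofibre markers summed to 88025 to 90574 CPM in vehicle, 70896 to 112302 in weekly and 54546 to 84420 in daily libraries, so the labelled tissue carried its defining transcripts in every library. No marker of the lists named here was at 0 in any library. What these markers account for was not tested.

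**Figure D5:**
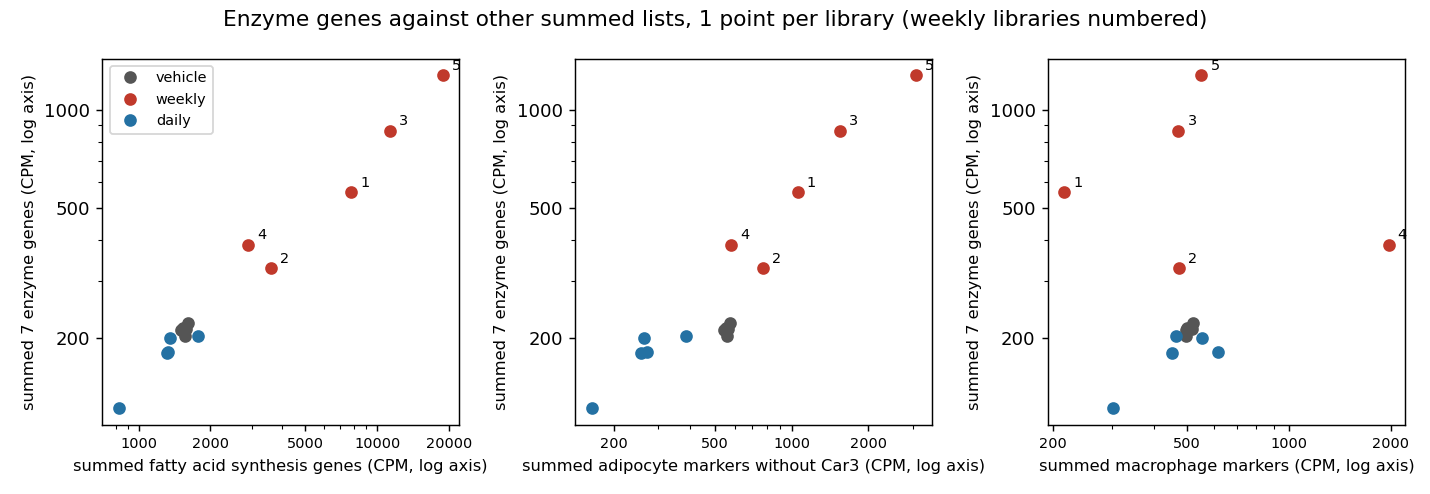
Summed CPM of the 7 genes on the vertical axis against the summed fatty acid synthesis genes, adipocyte markers without Car3 and macrophage markers, with 1 point per library and log axes. Weekly 5 is highest for the members (1281 CPM), fatty acid synthesis and adipocyte sums, and weekly 4 stands apart in the macrophage sum at 1971 CPM.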

How the data were processed

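Per the labels' protocols, total RNA from about 30 mg of tissue entered a stranded total RNA library kit (1 µg per sample) and was sequenced as 150 bp read pairs. Per the submitters' processing notes, TopHat2 2.1.0, HTSeq and edgeR were used with mm10 (GRCm38). The authors deposited 1 table, called RPKM in the labels, whose values are CPM: 222090 of 222090 values were whole reads within 0.01 reads, with 1 step per library for genes of any length. The planned test had assumed RPKM and was applied to the CPM values unchanged. Unnamed features, 534 of 14806, held 0.276% to 0.447% of a library and were left out.

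The main test was limma 3.58.1 (R 4.3.3) on log2(CPM + 0.5), with a mean-variance trend, 1 fit over the 15 libraries with group as the only term, genes with at least 1 CPM in at least 5 libraries, and Benjamini-Hochberg adjustment at 0.05 over all genes. The step was tested on simulated data. TMM scaling, edgeR 4.0.16 and DESeq2 1.42.0 on the recovered reads, a replicate block, the pseudocount, the filter, 2-group fits and left-out libraries were alternatives, 26 in all. Leaving out weekly 4 and daily 3 with TMM scaling was added after the data were seen.

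The members and lists were chosen with earlier results of these data known. The rule for names took, from each related list, the 3 tested genes with the smallest p in weekly against vehicle and 2 in each other comparison. It also took relatives of the members and the 3 most abundant genes of each marker list. These made 63 genes, of which those that bear on a member are printed. The 6 genes most like the members were named in addition to the 63. Cidea, Cs, Dio2, Gsr, Prps1, Rpia and the adipocyte sum without Car3 were chosen after their values were seen. Of 192 list genes 179 were found, 3 of them by a RefSeq synonym; the others are not analysed here. Promoters are from RefSeq (GRCm38.p6) and matched all 7 members by symbol.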

Additional observations from a re-analysis of the deposited data

Results flagged for a closer look

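G6pdx and Slc25a1 each had every weekly library above the vehicle mean (9.93 and 10.4 CPM) and every daily library below it. For Slc25a1 this rests on a near tie, with daily 1 at 10.39 CPM against a vehicle mean of 10.40. On the log2 scale daily 1 lay 0.0003 above the vehicle mean for Slc25a1. The difference between the regimens' effects is the change in daily against weekly, -1.44 for G6pdx and -2.81 for Slc25a1, given with no p-value because the genes were chosen with it known. In 3 of 21 groups of 5 values (7 genes in 3 groups), 1 library lay far from the other 4, and chance alone flags about 1 group in 20. Daily 3 was the lowest daily library for Pgd at 11.3 CPM, with 22.6 as the next value, and for Taldo1 at 20.3 CPM, with 32.8 as the next. Daily 3 is the library with 20.5% of its CPM in Gm26924. Vehicle 3 was the lowest vehicle library for Me1 at 78.1 CPM, with 85.3 as the next.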

How the results depend on the processing

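The 5 members called in weekly against vehicle were called under all 26 alternatives. Nothing is read from this, because several members were chosen by their higher CPM in weekly than in vehicle libraries. Counts of genes called moved more. For weekly against vehicle the 1133 genes became 1904 with DESeq2, 3340 without weekly 4 and daily 3, and 2408 with that and TMM scaling. For daily against vehicle the 547 genes became 1273 with TMM scaling, 1665 with 2 groups fitted, 1333 with edgeR, 1596 with DESeq2, 2422 without weekly 4 and daily 3, and 2844 with that and TMM scaling. For daily against weekly the 1227 genes became 662 with TMM scaling, 228 with 2 groups fitted, 746 with edgeR and 2044 without weekly 4 and daily 3. The higher and lower calls were 983 and 150, 248 and 299, and 68 and 1159 in the same order, and 805 and 588, 784 and 489, and 290 and 372 with TMM scaling.

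Of the other pentose phosphate and NADPH supply genes, 5, 3 and 7 were called in the same order. Weekly against vehicle gave 3 with TMM scaling and 3 with the replicate block. Daily against vehicle gave 1 with the block and 5 with TMM scaling without weekly 4 and daily 3. Daily against weekly gave 1 with TMM scaling, 0 with 2 groups fitted, 2 with edgeR, 4 with DESeq2, 11 without both libraries and 2 with that and TMM scaling. Members called in daily against vehicle went from 0 to 2 with 2 groups fitted and to 2 with TMM scaling without both libraries. The members' median for daily against weekly, -1.44, was -1.11 without both libraries and -1.0002 with that and TMM scaling. Me1 in daily against weekly was -0.65 with TMM scaling. Rac1 reversed with DESeq2 in weekly against vehicle (-0.17), and Csf1r in daily against weekly without both libraries and with TMM scaling (0.49). The causes were not tested.

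Leaving out 1 library at a time gave 645 to 2251, 347 to 1478 and 521 to 1888 genes called, 2 to 8, 1 to 3 and 2 to 9 of the other pathway genes, 5 to 7, 0 to 1 and 7 to 7 members, and member medians of 0.89 to 1.36, -0.35 to -0.20 and -1.64 to -1.15. Deviations from the group means correlated weakly between same-number libraries, at -0.0264 to -0.000419, -0.00418 to 0.0109 and -0.0293 to 0.146. The own number was the best match in 0, 1 and 2 of 5 pairs. With 5 pairs, these values cannot settle whether the numbers pair the libraries. A replicate block gave 1096, 494 and 985 genes called and 5, 0 and 7 members. Depth limits genes near 1.08 CPM in weekly 4, and the 5 libraries per group limit all counts.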
